A study of Homo sapiens with 52 samples.

Results

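The 48 genes described here are genes of the nerve cell programme that carry or are thought to carry control by the repressor REST, together with REST itself. They were chosen by symbol, and all 48 were found among the 27043 genes listed in each of the 52 TPM tables. Grouped by role, they hold REST, 17 genes of synaptic vesicles and their release machinery, 6 genes of secretory granules, 10 genes of the neuronal cytoskeleton and of growing neurites, 5 RNA-binding proteins of neurons, and 9 genes of transmission, signalling and other neuronal functions.

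The samples were cells of a fusion-positive rhabdomyosarcoma (FP-RMS) line, a childhood muscle-lineage tumour carrying the PAX3-FOXO1 fusion gene, grown in culture and exposed to small molecules, most of which act on chromatin. In the screen, 20 compounds were given for 6 h, each as 1 high-dose and 1 low-dose sample, beside 2 samples of 0.2% and 2 of 0.1% DMSO, the solvent. The doses were 10 and 1 µM, except for LAQ824, Cpd50 and GSKJ4, which were given at 5 and 0.5 µM. Separate experiments held N1302 at 1 µM with its DMSO sample at 6 h, and entinostat at 1 µM with DMSO after 1, 6 and 24 h, with 1 sample each. By the labelled targets, 5 screen compounds inhibited histone deacetylases (HDACs): LAQ824 (HDAC), WT161 (HDAC6), MC1568 (HDAC4/5), Merck60 (HDAC1/2) and OJI-1 (HDAC8). GSKLSD1, LSD-519 and LSD-690 inhibited the demethylase LSD1. The 12 others were bromosporin (bromodomains), SGC-CBP30 (CREBBP/EP300 bromodomain), UNC0638 (KMT1C), trametinib (MEK1/2), PFI-2 (SETD7), PFI-3 (SMARCA4), SGC0946 (DOT1L), EZ-005 (EZH2), UNC1999 (EZH1), GSKJ4 (JMJD3/UTX), Cpd50 (pan Jumonji) and UNC-1215 (L3MBTL3). N1302 is labelled as an HDAC inhibitor and entinostat as an inhibitor of HDAC1/2/3. The screen samples are titled RH41 but carry the cell-line label RH4, whereas the other 8 samples are titled and labelled RH4, so the screen was never set directly against them. Labels do not say whether samples came from separate cultures, so p-values measure only the spread between these samples. In the screen fit, the spread within a compound is the difference between its high and low dose. That spread, pooled over all compounds and DMSO, therefore holds effects of dose as well as technical differences, and is not a spread between replicates.

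REST is a zinc-finger repressor that keeps neuronal genes silent in cells outside the nervous system. It binds a long DNA element, RE1, and brings in the SIN3 and RCOR1 (CoREST) complexes, which hold the deacetylases HDAC1 and HDAC2 and, in the CoREST complex, the demethylase LSD1 (KDM1A). Its known targets include genes for vesicle release, neurofilaments, granule proteins and ion channels. By their labels, some of the HDAC inhibitors act on HDAC1 and HDAC2 and others on HDACs outside that corepressor, and the question was how the 48 genes differed between these compounds and the LSD1 inhibitors.

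The RE1 letters were looked for in the hg19 genome around the annotated start of each gene, because they are the sequence through which REST finds its targets. The strict form searched was CAGCACC, then any 2 bases, then GGACAG, on either strand and within 5000 bases of the start. It was present near 13 of the 48 genes (27.1%), against 80 of 14514 genes of the filtered table with a usable window (0.551%). The 48 include genes that did not pass the filter on low values, whereas the 14514 do not. Of the 34 members that passed it, 8 held the strict form. Within 1000 bases the counts were 10 of 48 (20.8%) and 32 of 14514 (0.22%), and within 250 bases 4 of 48 (8.33%) and 11 of 14514 (0.0758%). With up to 1 mismatch within 5000 bases, 24 of the 48 genes (50.0%) held it, against 775 (5.34%). Since several members were chosen as known REST targets, these shares are given with no test. The 12 sites below are the strict matches printed here, each 29 bases long, 5′ to 3′ on the strand of the match, with the letters of the motif in capitals and hg19 coordinates. NEFM held the remaining strict match. Of the 12 sites, 3 lie in exons, within a UTR, 5 in introns and 4 upstream of the gene.
SYT4 (chr18:40857255-40857283, minus strand, exonic UTR, 346 bases downstream): ttcccttCAGCACCtcGGACAGaacacgc
SYT5 (chr19:55691565-55691593, minus strand, exonic UTR, 141 bases downstream): ccgcgatCAGCACCcgGGACAGcgccacc
SNAP25 (chr20:10200315-10200343, plus strand, intron, 883 bases downstream): gacctttCAGCACCggGGACAGcggtccg
SYN1 (chrX:47479466-47479494, minus strand, upstream of the gene, 224 bases upstream): ccagcttCAGCACCgcGGACAGtgccttc
SYP (chrX:49056578-49056606, minus strand, intron, 69 bases downstream): cgcgctcCAGCACCgtGGACAGagcccgc
CHGA (chr14:93389863-93389891, plus strand, intron, 432 bases downstream): gagttttCAGCACCgcGGACAGcgcctcc
CHGB (chr20:5892345-5892373, plus strand, intron, 385 bases downstream): ggccggtCAGCACCgcGGACAGcgccagc
NEFH (chr22:29874661-29874689, minus strand, upstream of the gene, 1506 bases upstream): ggcgcttCAGCACCggGGACAGggcctgc
INA (chr10:105038762-105038790, minus strand, intron, 1856 bases downstream): tcgagatCAGCACCgtGGACAGcgccccg
CELF3 (chr1:151689573-151689601, minus strand, upstream of the gene, 291 bases upstream): agtcttcCAGCACCggGGACAGctccagc
GRIN1 (chr9:140033707-140033735, plus strand, exonic UTR, 112 bases downstream): cccgcttCAGCACCgcGGACAGcgccggc
SLC18A3 (chr10:50815167-50815195, plus strand, upstream of the gene, 3166 bases upstream): ccggggcCAGCACCctGGACAGctcccgg

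At baseline most of these genes were silent or nearly so. Of the 48, 29 were under 1 TPM in all 4 screen DMSO samples and 18 were at 1 TPM or more in all 4. In the 52 samples together, 14 genes stayed at 1 TPM or more throughout. They were REST, SYT1, SYT11, STMN3, INA, ELAVL2, STX1A, GAD1, UCHL1, MAPK8IP1, MAP2, VAMP2, SV2A and DNER. At the other end, 11 genes never reached 1 TPM in any sample: SYT4, SNAP25, STMN4, SCG3, NEFM, GAP43, ELAVL4, CELF4, CPLX2, SLC18A3 and MAPT. A further 3, STMN2, CHGB and UNC13A, reached it in 1 sample only. These 14 genes did not pass the filter on low values, 1 TPM in at least 2 of the 52 samples, and the remaining 34 were tested among 16359 genes.

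The cells carried the muscle markers of FP-RMS, with all 8 of the muscle list above 2 TPM in every sample and MYOD1 at 639.7 to 648 TPM in the screen DMSO samples. The neuronal lineage factors NEUROD1 and NEUROD2 stayed under 1 TPM in all 52 samples. Others of that list were expressed in the screen DMSO samples, with POU4F1 at 165 to 171 TPM, HAND2 at 7.07 to 9.06 TPM and ISL1 at 2.91 to 3.68 TPM. Markers of blood, epithelial, endothelial, glial and Schwann cells (6 genes) were below 1 TPM in all DMSO samples. Depth, taken from the steps between TPM values, varied 7.23-fold across samples and followed the flow cell named with each table. The flow cell of WT161, Merck60, OJI-1, LSD-519 and LSD-690 held no DMSO sample and was the shallowest, that of LAQ824 and MC1568 was 2.28 times and that of GSKLSD1 3.46 times as deep at the median. DMSO at 0.2% and at 0.1% did not differ in any of the 34 genes by limma at an adjusted p below 0.05. At an unadjusted p below 0.05 the number was 2 of the 34, and over all genes 0.0% were called and 1548 had an unadjusted p below 0.05.

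**Figure D1:**
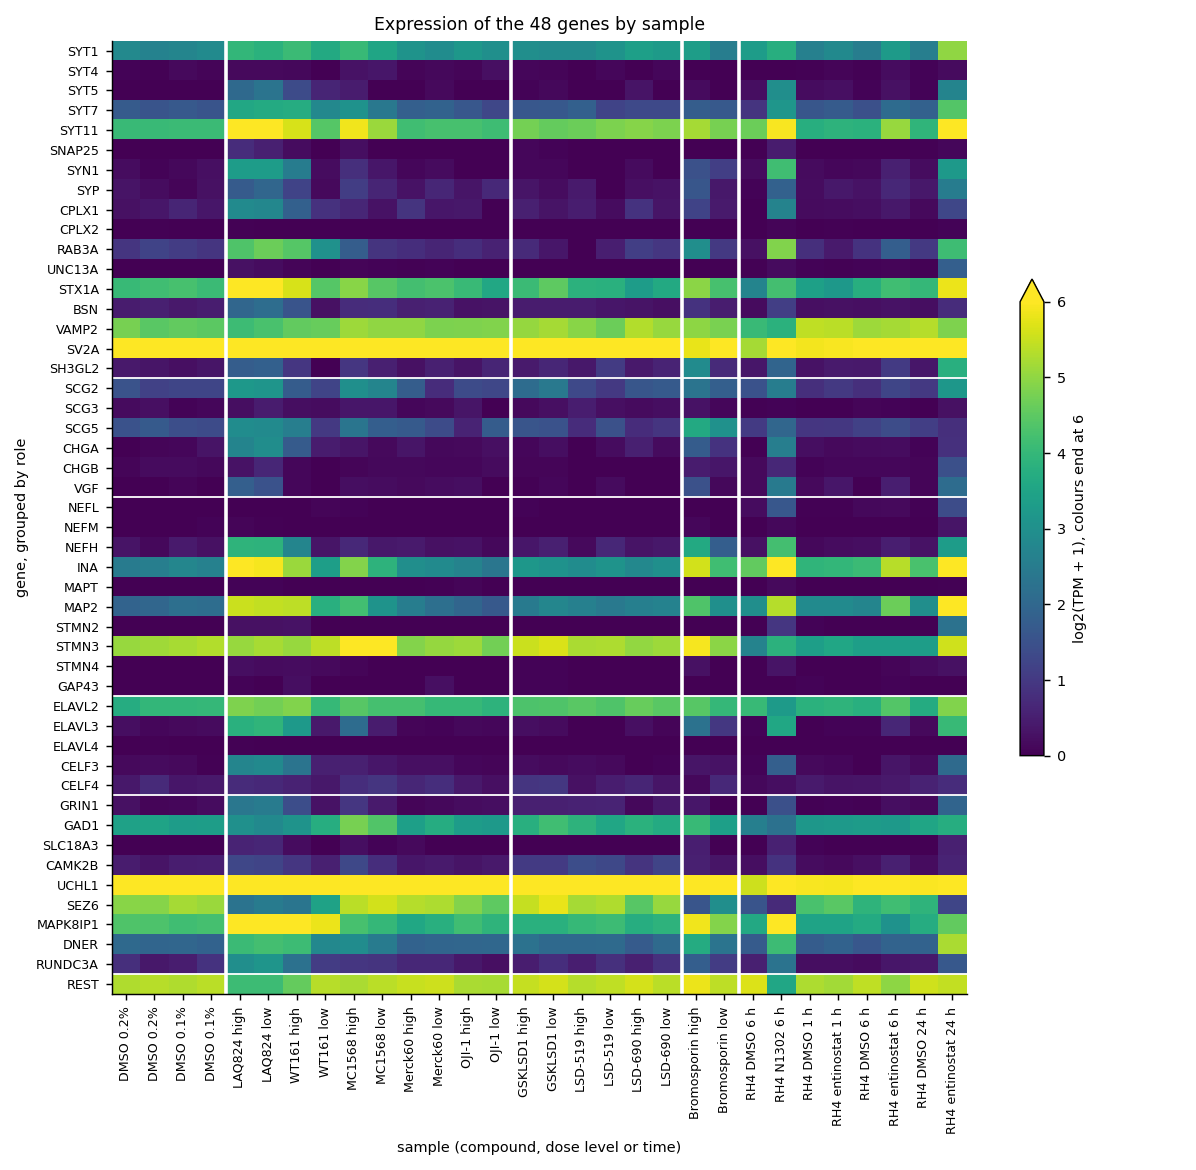
Expression of the 48 genes as log2(TPM + 1) in 30 samples, with genes in rows by role and samples in columns (screen DMSO, HDAC inhibitors, LSD1 inhibitors, bromosporin, RH4-titled samples). Both LAQ824 samples, the high dose of WT161, N1302 and 24 h of entinostat are bright in rows that are dark in DMSO, and the LSD1 inhibitor columns resemble DMSO.

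HDAC inhibitors fell into separate levels of response. The mean change over the 48 genes, as a difference in log2(TPM + 1) from the matching DMSO concentration, was 1.21 at the high and 1.23 at the low dose of LAQ824. It was 0.89 and 0.24 for WT161, 0.64 and 0.33 for MC1568, 0.08 and 0.05 for Merck60 and -0.01 and -0.07 for OJI-1. The mean over all 16359 tested genes moved by 0.06 and 0.08 under LAQ824 and by 0.05 and 0.01 under WT161, and by 0.35 and 0.27 under MC1568. Over the 6 LSD1 inhibitor samples the 48-gene mean lay between 0.064 and 0.19. For GSKLSD1 it was 0.16 at the high and 0.19 at the low dose, where the mean over all tested genes moved by 0.12 and 0.21. The all-gene mean moved by 0.023 and 0.024 under LSD-519 and by 0.030 and 0.034 under LSD-690. Over the other screen compounds except bromosporin, the 48-gene mean lay between 0.0091 and 0.22. The SD of the same mean over the 4 DMSO samples was 0.0071 on the log2 scale. The flow cells of WT161, Merck60, OJI-1 and the LSD1 inhibitors held no DMSO sample. This SD therefore leaves out the spread between those flow cells and DMSO, and is no measure for their small means. The number of the 48 genes at 1 TPM or more was 33 under each dose of LAQ824, 30 and 20 under WT161, 22 and 18 under MC1568, 17 to 18 under Merck60 and OJI-1, and 18 to 19 in the LSD1 inhibitor samples.

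**Figure D2:**
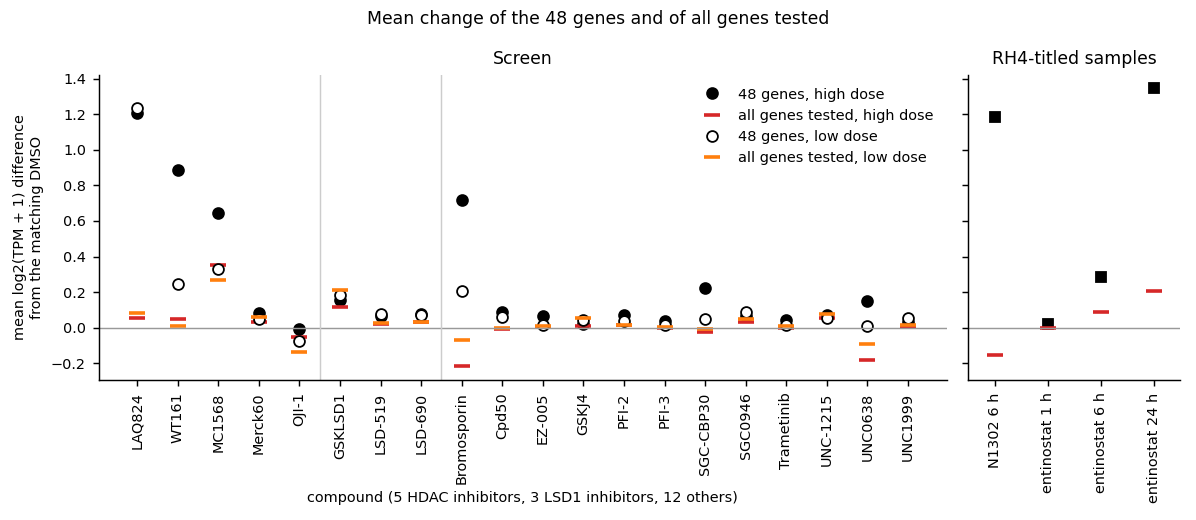
Mean difference in log2(TPM + 1) from the matching DMSO over the 48 genes (circles and squares) and over all 16359 tested genes (bars), for each screen compound at its high and low dose and for the RH4-titled samples. LAQ824, the high doses of WT161, MC1568 and bromosporin, N1302 and 24 h of entinostat lie highest for the 48 genes, at 0.64 to 1.34.

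Among the screen compounds, LAQ824 called the most members. By limma on log2(TPM + 1), with both doses pooled against the 4 DMSO samples, 25 of the 48 genes rose and 2 fell (adjusted p below 0.05 and at least a 2-fold difference), 7 tested genes were not called and 14 were not tested. Over all tested genes, 14.0% were called higher and 11.7% lower. The median difference of the 34 tested members was 1.93, against 0.057 over all tested genes, on the log2 scale. Of the genes called higher, 13 were under 1 TPM in every screen DMSO sample and 12 were not. The doses gave nearly the same levels, and 27 members were called from either dose alone. Against only the 2 DMSO samples of its own flow cell, 27 members were called. Members that are silent in DMSO could pass the filter only through the samples in which they are high, so their count is a description.

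Genes of the synaptic vesicle and its release machinery made up 11 of the 25. RAB3A, a small GTPase of synaptic vesicles, was at 0.902 to 1.3 TPM in DMSO and at 19.2 TPM at the high and 24.2 TPM at the low dose of LAQ824, a log2 difference of 3.46 ± 0.36 (SE, adjusted p = 9.00e-09). SYN1, which tethers vesicles to actin, was at 0.038 to 0.192 TPM in DMSO and at 8.98 TPM at the high and 9.02 TPM at the low dose, a difference of 3.16 ± 0.31 (SE, adjusted p = 3.71e-09). Neither gene's treated values overlapped with DMSO. Over all tested genes, 42.91% were above and 38.35% below every DMSO sample at both doses of LAQ824. SYT5, a synaptotagmin, was listed at 0 in all 4 DMSO samples and at 3.14 TPM at the high and 3.95 TPM at the low dose (adjusted p = 5.49e-11). Among the calcium sensors of exocytosis, SYT7 went from 1.96 to 2.28 TPM to 11.2 TPM at the high and 11.7 TPM at the low dose (2.01 ± 0.20, SE, adjusted p = 5.26e-09), and SYT1 from 5.28 to 6.33 TPM to 14.6 TPM at the high and 13.2 TPM at the low dose (1.12 ± 0.18, SE, adjusted p = 7.85e-06). SYT11, an atypical synaptotagmin that does not bind calcium, was already at 15.8 to 16.1 TPM and rose to 76.8 TPM at the high and 69.9 TPM at the low dose. STX1A, the plasma membrane SNARE syntaxin-1A, was at 15.5 to 18.2 TPM in DMSO and at 69.3 TPM at the high and 77.9 TPM at the low dose, a difference of 2.08 ± 0.23 (SE, adjusted p = 1.90e-08).

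The other vesicle genes that rose were lower in level. CPLX1, a complexin that clamps SNARE fusion, was at 0.213 to 0.534 TPM in DMSO and at 6.29 TPM at the high and 5.83 TPM at the low dose of LAQ824. The active zone scaffold gene BSN was at 0.327 to 0.451 TPM and at 2.97 TPM at the high and 3.45 TPM at the low dose, the vesicle membrane protein gene SYP at 0.067 to 0.25 TPM and at 2.32 TPM at the high and 2.93 TPM at the low dose, and SH3GL2, encoding an endophilin of vesicle recycling, at 0.179 to 0.334 TPM and at 2.41 TPM at the high and 2.55 TPM at the low dose. Their log2 differences ran from 1.46 for SH3GL2 to 2.41 for CPLX1, with the largest adjusted p at 6.84e-04. VAMP2 and SV2A, expressed in DMSO like SYT1, SYT11 and STX1A, were not called. VAMP2, the vesicle SNARE synaptobrevin, was at 21.2 to 26.1 TPM in DMSO and at 16.4 TPM at the high and 18.3 TPM at the low dose of LAQ824, a difference of -0.38 ± 0.14 (SE, adjusted p = 0.021), below the 2-fold limit. SV2A, a vesicle membrane glycoprotein, was at 64.8 to 70.4 TPM and at 127 TPM at the high and 134 TPM at the low dose, a difference of 0.94 ± 0.11 (SE, adjusted p = 3.54e-08), just under that limit. SNAP25, which carries a strict RE1 in an intron, reached 0.693 and 0.45 TPM after 0 in every DMSO sample and was not tested.

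RNA-binding and cytoskeletal genes held several of the large differences under LAQ824. ELAVL3, a neuronal Hu protein that binds AU-rich RNA, was at 0.078 to 0.163 TPM in DMSO and at 12.9 TPM at the high and 14.2 TPM at the low dose, a difference of 3.70 ± 0.44 (SE, adjusted p = 7.60e-08). NEFH, the heavy neurofilament subunit, was at 0.098 to 0.351 TPM and at 13.9 TPM at the high and 13.7 TPM at the low dose, a difference of 3.60 ± 0.41 (SE, adjusted p = 3.49e-08). MAP2, which stabilises dendritic microtubules, was at 2.74 to 3.6 TPM and at 44.5 TPM at the high and 42.4 TPM at the low dose, a difference of 3.42 ± 0.34 (SE, adjusted p = 4.87e-09). INA, the intermediate filament protein internexin, was at 4.62 to 5.71 TPM and at 63.8 TPM at the high and 59.2 TPM at the low dose, a difference of 3.35 ± 0.37 (SE, adjusted p = 2.31e-08). For each of these 4 genes the lower LAQ824 value was above the highest DMSO value, as for 42.91% of all tested genes. CELF3, a splicing regulator, was at 0.022 to 0.131 TPM in DMSO and at 5.66 TPM at the high and 6.2 TPM at the low dose, a difference of 2.66 ± 0.23 (SE, adjusted p = 6.62e-10). ELAVL2, another Hu protein, was expressed throughout, at 12.1 to 14.9 TPM in DMSO and at 27.4 TPM at the high and 25.3 TPM at the low dose, with a difference of 0.86 ± 0.17 (SE, adjusted p = 1.13e-04) that is below 2-fold. STMN3, a stathmin that destabilises microtubules, was at 32.7 to 38.9 TPM in DMSO and at 32.5 TPM at the high and 36 TPM at the low dose, within the DMSO range at the low dose. The light and medium neurofilament genes did not follow NEFH: NEFL was listed at 0 in both LAQ824 samples and NEFM was at 0.058 and 0.025 TPM. The axonal genes MAPT and GAP43 were at 0.042 and 0.048 TPM and at 0.045 and 0 TPM.

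Of the 6 secretory granule genes, 4 rose under LAQ824 and 2, CHGB and SCG3, did not pass the filter. CHGA and VGF passed it only through samples in which they were high. CHGA, the granule core protein chromogranin A, was at 0 to 0.241 TPM in DMSO and at 5.56 TPM at the high and 6.63 TPM at the low dose, a difference of 2.70 ± 0.23 (SE, adjusted p = 4.13e-10). SCG2, a granin that is cut into neuropeptides, was at 1.23 to 1.89 TPM and at 8.17 TPM at the high and 7.69 TPM at the low dose, a difference of 1.86 ± 0.21 (SE, adjusted p = 2.50e-08). SCG5, the chaperone of the prohormone convertase PC2, was at 1.58 to 2.25 TPM and at 6.52 TPM at the high and 6.32 TPM at the low dose, and VGF, a neurotrophin-inducible peptide precursor, at 0 to 0.064 TPM and at 2.54 TPM at the high and 1.84 TPM at the low dose. Their adjusted p-values were 4.07e-04 and 7.15e-08. CHGB and SCG3 stayed under 1 TPM in both samples.

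In the group of transmission and signalling genes, 5 of 9 rose. MAPK8IP1, the JNK scaffold JIP1, was at 16.9 to 19.2 TPM in DMSO and at 93.7 TPM at the high and 95.8 TPM at the low dose, a difference of 2.32 ± 0.22 (SE, adjusted p = 1.93e-09). GRIN1, the obligatory NMDA receptor subunit, was at 0.056 to 0.208 TPM and at 4.2 TPM at the high and 4.62 TPM at the low dose, a difference of 2.27 ± 0.19 (SE, adjusted p = 4.62e-10). RUNDC3A was at 0.298 to 0.842 TPM and at 6.81 TPM at the high and 7.8 TPM at the low dose, DNER, a Notch-binding surface protein of neurons, at 2.71 to 3.16 TPM and at 16.1 TPM at the high and 17.6 TPM at the low dose, and UCHL1, a neuronal ubiquitin hydrolase, at 77 to 86.7 TPM and at 167 TPM at the high and 177 TPM at the low dose. Their differences were 2.42, 2.18 and 1.05 on the log2 scale. SEZ6, a seizure-related membrane protein of dendrites, moved the other way, from 29.2 to 35.4 TPM in DMSO to 3.85 TPM at the high and 4.64 TPM at the low dose, a difference of -2.65 ± 0.42 (SE, adjusted p = 5.92e-06). GAD1, which makes the transmitter GABA, was at 8.93 to 10.2 TPM in DMSO and at 7.09 TPM at the high and 6.16 TPM at the low dose, a difference of -0.46 ± 0.18 (SE, adjusted p = 0.031), and was not called. CAMK2B, a synaptic kinase subunit, was at 0.239 to 0.429 TPM in DMSO and at 1.44 TPM at the high and 1.34 TPM at the low dose, with a difference on the log2(TPM + 1) scale under the limit for a call (0.82 ± 0.15, SE, adjusted p = 4.43e-05). SLC18A3, the vesicular acetylcholine transporter, reached 0.513 and 0.57 TPM and was not tested.

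Muscle genes moved in the same samples. Under LAQ824, 4 of the 8 muscle markers fell, among them MYOD1 (-3.12 ± 0.30, SE, adjusted p = 3.12e-09) and MYOG (-3.50 ± 0.38, SE, adjusted p = 2.02e-08), and 4 of 8 fell under WT161, 3 under bromosporin and 1 under MC1568. The shares of all tested genes that fell were 11.7%, 5.2%, 9.18% and 0.0306%. Of the neuronal lineage factors, 3 were tested, and POU4F1 (-1.02) and HAND2 (-1.45) fell under LAQ824 while 0 rose. Their part in the result was not tested. In bulk RNA, fewer cells of a type and less RNA per cell cannot be told apart.

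WT161 gave a response that depended on the dose. It called 13 members higher and 1 lower, against 5.48% and 5.2% of all tested genes. Of the 13, 5 were under 1 TPM in every screen DMSO sample and passed the filter only through samples in which they were high. The high dose alone called 22 members and the low dose alone 6. MAP2 was at 41 TPM at the high and 12.7 TPM at the low dose, a pooled log2 difference of 2.53 ± 0.34 (SE, adjusted p = 2.10e-06). RAB3A was at 20.5 and 7.19 TPM (2.70 ± 0.36, SE, adjusted p = 1.79e-06), and MAPK8IP1 at 91.1 and 55.3 TPM (1.91 ± 0.22, SE, adjusted p = 2.02e-07). These 3 genes were above every DMSO value at both doses, as were 32.38% of all tested genes. SYN1, in contrast, was at 4.73 TPM at the high dose and at 0.156 TPM, within the DMSO range, at the low dose, and NEFH was at 5.67 and 0.27 TPM. ELAVL3 was at 8.48 and 0.321 TPM. The other genes called higher were SV2A (1.14), SYT7 (1.63), SYT1 (1.09), CELF3 (1.29), DNER (1.48), INA (1.62) and RUNDC3A (1.03), with their log2 differences in parentheses. SEZ6 fell, to 4.08 TPM at the high and 10.1 TPM at the low dose (-2.13 ± 0.42, SE, adjusted p = 2.31e-04). None of the granule genes was called. SV2A had the higher value at the low dose, at 161 against 141 TPM. With no DMSO on its flow cell, WT161 set against the other compounds of that flow cell called 10 members higher and 1 lower.

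MC1568 called 10 members higher and 0 lower, against 7.41% and 0.0306% of all tested genes. Nearly all of its calls over the table were upward, and the median of all tested genes was shifted by 0.26 on the log2 scale, so the members' median of 0.51 is to be read against that shift. UCHL1 was at 335 TPM at the high and 200.2 TPM at the low dose, a difference of 1.64 ± 0.19 (SE, adjusted p = 5.76e-07). SCG2 was at 6.89 TPM at the high and 5.65 TPM at the low dose (1.55 ± 0.21, SE, adjusted p = 3.80e-06), and INA at 28.8 TPM at the high and 13.6 TPM at the low dose (1.77 ± 0.37, SE, adjusted p = 6.36e-04). The other genes called were SYT11 (1.41), MAP2 (1.58), GAD1 (1.18), ELAVL3 (1.14), STMN3 (1.11), SYT7 (1.10) and SYT1 (1.02). Of these, 9 were at 1 TPM or more in at least 1 DMSO sample, and ELAVL3 was the exception. GAD1 was at 26.1 TPM at the high and 19.7 TPM at the low dose and STMN3 at 92.6 TPM at the high and 65.4 TPM at the low dose, above every DMSO, LAQ824 and WT161 sample in both genes. SEZ6 was at 40.7 TPM at the high and 47.4 TPM at the low dose, above its highest DMSO value, with a difference of 0.46 ± 0.42 (SE, adjusted p = 0.43). Over all tested genes, 54.6% were above every DMSO sample at both doses of MC1568. The low dose alone called 3 members and the high dose alone 11, and against the DMSO samples of its own flow cell 9 members were called.

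Neither Merck60, labelled for HDAC1/2, nor OJI-1, labelled for HDAC8, called any member by limma, with 0.0611% and 0.122% of all tested genes called. At an unadjusted p below 0.05 the numbers were 3 of 34 members for Merck60 and 0 for OJI-1. RAB3A was at 0.713 TPM at the high and 0.529 TPM at the low dose of Merck60 and at 0.723 TPM at the high and 0.489 TPM at the low dose of OJI-1, at or below the lowest DMSO value. MAP2 was at 4.83 TPM at the high and 3.59 TPM at the low dose of Merck60 (0.32 ± 0.34, SE, adjusted p = 0.805). SYN1 stayed at or under 0.124 TPM in these 4 samples. MAPK8IP1 was lower than in every DMSO sample under Merck60, at 10.9 TPM at the high and 12.7 TPM at the low dose (-0.59 ± 0.22, SE, adjusted p = 0.243). Over all tested genes, 16.28% were below every DMSO sample at both doses of Merck60 and 27.37% at both doses of OJI-1.

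The 3 LSD1 inhibitors called 0 members each by limma, while they called 1.28% (GSKLSD1), 0.489% (LSD-519) and 0.776% (LSD-690) of all tested genes. At an unadjusted p below 0.05, 9, 6 and 9 members differed, and 9, 5 and 6 of these were higher than in DMSO. Median shifts of all genes were 0.13 for GSKLSD1 and below 0.04 for the other LSD1 inhibitors. CAMK2B passed the adjusted p for each of the 3 compounds, but its differences on the log2(TPM + 1) scale, which shrinks those of low genes, were under the limit of 1 for a call. It was at 0.239 to 0.429 TPM in DMSO, at 1.04 and 1.03 TPM under GSKLSD1, at 1.69 and 1.46 TPM under LSD-519 and at 0.865 and 1.33 TPM under LSD-690. All 6 values lay above all 4 DMSO values, as for 15.4% of all tested genes. The differences were 0.59 ± 0.15 (SE, adjusted p = 0.014), 0.93 ± 0.15 (SE, adjusted p = 6.17e-04) and 0.62 ± 0.15 (SE, adjusted p = 0.017). Merck60 and OJI-1 left it at 0.237 to 0.346 TPM. Its difference from DMSO was 0.61 ± 0.15 under MC1568 (SE, adjusted p = 0.0031) and 0.82 ± 0.15 under LAQ824 (SE, adjusted p = 4.43e-05). Set by limma against the LSD1 inhibitors, CAMK2B differed by -0.10 under MC1568 (adjusted p = 0.62) and 0.11 under LAQ824 (adjusted p = 0.53). Under WT161 that difference was -0.41 (adjusted p = 0.021). With a pseudocount of 0.1 in place of 1, CAMK2B was called higher for all 3 LSD1 inhibitors. The called members were then 2 for GSKLSD1, 2 for LSD-519, of which RAB3A was lower, and 1 for LSD-690. LAQ824 also called CAMK2B with that pseudocount. SCG2 under GSKLSD1 was at 3.35 and 4.39 TPM, a difference of 0.97 ± 0.21 (SE, adjusted p = 0.0028), against 1.23 to 1.89 TPM in DMSO, just under the limit on that scale and called with the smaller pseudocount.

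In all, 9 members (SYT1, SYT11, INA, ELAVL2, GAD1, UCHL1, MAP2, SV2A and CAMK2B) were above every DMSO sample in all 6 LSD1 inhibitor samples, as were 15.4% of all tested genes, and MAPK8IP1 was below every DMSO sample in all 6, as were 4.45% of all tested genes. No LSD1 inhibitor sample shared a flow cell with a DMSO sample. Set against the other compounds of their flow cells, the 3 LSD1 inhibitors called 0 members. For GSKLSD1 that reference was UNC-1215 alone. For LSD-519 and LSD-690 it held the other of the pair, WT161 and bromosporin among its compounds. Such references can hide a rise that they share, so nothing is read from these counts. Of the 29 members under 1 TPM in every screen DMSO sample, CAMK2B and SH3GL2 reached 1 TPM in any of the 6 samples, SH3GL2 only at the low dose of LSD-519, with 1.05 TPM. GRIN1 was above its highest DMSO value in 5 of the 6, at 0.317 to 0.509 TPM, and at 0.101 TPM in the high dose of LSD-690. By comparison, SYN1 was at 0.137 TPM or less in the 6 samples, NEFH at 0.6 TPM or less, CHGA at 0.432 TPM or less and ELAVL3 at 0.188 TPM or less. RAB3A was listed at 0 in the high dose of LSD-519 and reached 1.18 TPM in the high dose of LSD-690. MAP2 ran from 4.38 to 5.76 TPM in the 6 samples.

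Set directly against the mean of the 3 LSD1 inhibitors in the same fit, LAQ824 had 23 members higher and 2 lower, where 12.5% and 13.2% of all tested genes were called. WT161 had 12 higher and 1 lower (4.33% and 6.09% of all tested genes), and MC1568 6 higher and 0 lower (4.6% and 0.0428%). Members under 1 TPM in DMSO, such as SYN1, NEFH and ELAVL3, passed the filter only through samples in which they were high. These counts are therefore a description. The counts for WT161 and MC1568 also depended on the dose. Without the high-dose sample 5 members were called for WT161 and 1 for MC1568, and without the low-dose sample 18 and 10. Merck60 and OJI-1 had 0 called members, with 4 and 6 members at an unadjusted p below 0.05, all lower than under the LSD1 inhibitors, and 0.556% and 1.51% of all tested genes called. RAB3A differed from the LSD1 inhibitors by 3.89 ± 0.34 (SE, adjusted p = 3.84e-10) under LAQ824 and by 3.12 ± 0.34 (SE, adjusted p = 7.60e-08) under WT161. MAPK8IP1 differed by 2.68 ± 0.21 (SE, adjusted p = 4.95e-11) and 2.27 ± 0.21 (SE, adjusted p = 7.22e-09), and MAP2 by 2.88 ± 0.32 (SE, adjusted p = 2.03e-08) and 1.99 ± 0.32 (SE, adjusted p = 1.79e-05). STX1A, not called for WT161 against DMSO, was called here, at 1.16 ± 0.21 (SE, adjusted p = 8.79e-05). UCHL1 under MC1568 differed by 1.26 ± 0.18 (SE, adjusted p = 1.04e-05). On the flow cell shared by WT161, LSD-519 and LSD-690, 10 members were higher and 1 lower under WT161.

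As classes, with compounds as units, the 5 HDAC and 3 LSD1 inhibitors did not differ in any member by limma at an adjusted p below 0.05, and 0 members had an unadjusted p below 0.05. Over all genes 687 did, and 0.0122% were called. The median class difference of the 34 members was 0.58 on the log2 scale, against 0.001 over all tested genes. ELAVL3 differed by 1.31 ± 0.78 (SE, adjusted p = 0.685). The HDAC inhibitors themselves spanned -0.09 to 3.70 against DMSO for this gene, so the spread within the class was wider than the difference between classes.

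**Figure D3:**
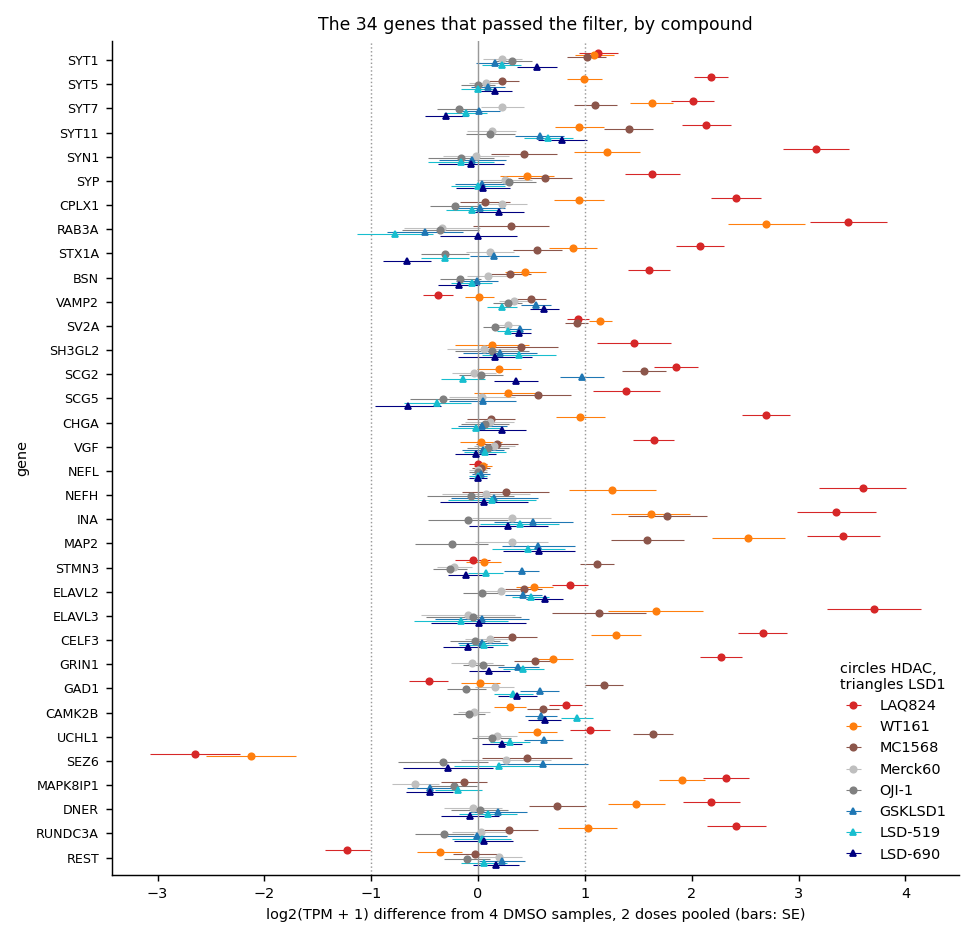
Difference in log2(TPM + 1) from the 4 DMSO samples for the 34 tested members (rows) under 5 HDAC inhibitors (circles) and 3 LSD1 inhibitors (triangles), with bars of 1 SE and dotted lines at a 2-fold difference. LAQ824 reaches 3.70 for ELAVL3 and -2.65 for SEZ6, and the triangles stay within the dotted lines.

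The mRNA of the repressor itself changed under few compounds. REST was at 38.1 to 40.4 TPM in DMSO and at 16.2 TPM at the high and 16.2 TPM at the low dose of LAQ824, a difference of -1.22 ± 0.21 (SE, adjusted p = 2.08e-05). Under WT161 it was at 23.1 TPM at the high and 39.7 TPM at the low dose (-0.36 ± 0.21, SE, adjusted p = 0.185), so the high-dose sample alone was below DMSO. It was at 36.6 TPM at the high and 40.5 TPM at the low dose of MC1568, at 44.5 TPM at the high and 45.7 TPM at the low dose of Merck60 and at 36.6 TPM at the high and 36.1 TPM at the low dose of OJI-1, with adjusted p-values of 0.955, 0.806 and 0.929. In the 6 LSD1 inhibitor samples it ran from 39.4 to 47.9 TPM, with adjusted p-values of 0.647 to 1. Against the LSD1 inhibitors REST was lower under LAQ824, at -1.37 ± 0.20 (SE, adjusted p = 1.61e-06), and under WT161 the difference was -0.51 ± 0.20 (SE, adjusted p = 0.043), within 2-fold. The highest REST value of the 52 samples, 101 TPM, came from the high dose of UNC0638, while its low dose gave 36.7 TPM (0.63 ± 0.21, SE, adjusted p = 0.033). Under bromosporin, REST was at 55.7 TPM at the high and 41.4 TPM at the low dose (0.29 ± 0.21, SE, adjusted p = 0.284).

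Of 25 genes for proteins that work with REST, 23 were tested. Under LAQ824 10 fell and 0 rose, under bromosporin 5 fell, under WT161 3 fell, and under MC1568 1 rose, where 11.7%, 9.18% and 5.2% of all tested genes fell and 7.41% rose under MC1568. The LSD1 inhibitors, Merck60 and OJI-1 called 0. Among the genes that fell under LAQ824 were CTDSP1, a phosphatase recruited by REST (-2.42 ± 0.28, SE, adjusted p = 5.55e-08), USP7, a deubiquitinase (-1.87), the chromatin remodeller genes SMARCA4 (-1.59) and SMARCE1 (-1.24), and the corepressor genes ZMYM3 (-1.48), ZMYM2 (-1.20), CTBP1 (-1.37) and RCOR3 (-1.03). The gene called under MC1568 was RCOR2 (1.23 ± 0.28, SE, adjusted p = 0.0015), a count of 1 in 23 that is not above the share over all genes. Among 19 other genes known to hold a REST site, 9 were tested. CHRM4, a muscarinic receptor, TUBB3, the neuronal beta-tubulin, and CDK5R2, an activator of the kinase CDK5, rose under LAQ824 (2.91, 2.48 and 2.76), under WT161 (2.42, 1.59 and 1.83) and under bromosporin (1.14, 2.17 and 1.46), and 0 of the 9 fell. MC1568 called CHRM4 (1.10) and CDK5R2 (1.26), and the LSD1 inhibitors called 0 of these genes. The shares of all tested genes called higher were 14.0% under LAQ824, 5.48% under WT161, 4.21% under bromosporin and 7.41% under MC1568. CDK5R2 was at 0.241 to 0.675 TPM in the screen DMSO samples and passed the filter only through samples in which it was high.

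Bromosporin was the other compound with many called members, 10 higher and 1 lower, against 4.21% and 9.18% of all tested genes. Its calls were 31.5% higher over the table, or 42.2% with median-ratio scaling, and the median of all genes was shifted by -0.12. NEFH was at 11.5 TPM at the high and 2.48 TPM at the low dose (2.43 ± 0.41, SE, adjusted p = 3.92e-05), INA at 46.9 TPM at the high and 17 TPM at the low dose (2.26 ± 0.37, SE, adjusted p = 3.02e-05) and SCG5 at 11.5 TPM at the high and 7.21 TPM at the low dose (1.84 ± 0.31, SE, adjusted p = 4.57e-05). SCG5 was higher in both bromosporin samples than in the high-dose LAQ824 sample. Also called were MAP2 (1.61), SH3GL2 (1.46), ELAVL3 (1.45), CHGA (1.19), SYN1 (1.14), MAPK8IP1 (1.12) and DNER (1.02). Of the 10, 5 were under 1 TPM in every screen DMSO sample and passed the filter only through samples in which they were high. SEZ6 fell, to 1.98 TPM at the high and 6.8 TPM at the low dose (-2.76 ± 0.42, SE, adjusted p = 1.45e-05). Its flow cell held no DMSO sample, and against the other compounds there 9 members were higher and 1 lower.

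The remaining compounds called few members. SEZ6 fell under trametinib, to 2.28 TPM at the high and 2.61 TPM at the low dose (-3.25 ± 0.42, SE, adjusted p = 1.03e-05), and under SGC-CBP30, to 2.06 TPM at the high and 19.3 TPM at the low dose (-2.05 ± 0.42, SE, adjusted p = 0.0024). ELAVL2 rose under trametinib (1.17) and INA under SGC-CBP30 (1.34), with 1.55% and 1.92% of all tested genes called. SCG2 rose under UNC0638, to 4.31 TPM at the high and 4.35 TPM at the low dose (1.11 ± 0.21, SE, adjusted p = 7.60e-04), under PFI-2 (1.21 ± 0.21, SE, adjusted p = 0.0016) and under UNC-1215 (1.13 ± 0.21, SE, adjusted p = 0.021). UNC0638 also raised SCG5 (1.03), and called 4.4% of all tested genes, of which 29.6% were higher, or 44.5% with median-ratio scaling, at a median shift of -0.12 over all genes. PFI-2 called 0.257% and UNC-1215 0.0489% of all tested genes. All 8 UNC-1215 calls were higher, against 87.5% of its calls with that scaling. Cpd50 raised RAB3A, to 9.92 TPM at the high and 6.51 TPM at the low dose (2.15 ± 0.36, SE, adjusted p = 1.17e-04), with 2.33% of all tested genes called. Set within its own flow cell the trametinib call of SEZ6 and the Cpd50 call of RAB3A were made again, and those of the other compounds in this paragraph, with ELAVL2 under trametinib, were not. For UNC-1215 the only reference there was GSKLSD1, under which SCG2 was itself 0.97 above DMSO. That comparison therefore could not decide on the SCG2 call. EZ-005, GSKJ4, PFI-3, SGC0946 and UNC1999 called 0 members by limma, with 2, 2, 2, 3 and 3 members at an unadjusted p below 0.05. They called 0.0978%, 0.00611%, 0.0245%, 0.122% and 0.0856% of all tested genes. With both doses pooled, REST was called under none of these 11 compounds, although the high dose of UNC0638 alone was well above DMSO.

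**Figure D4:**
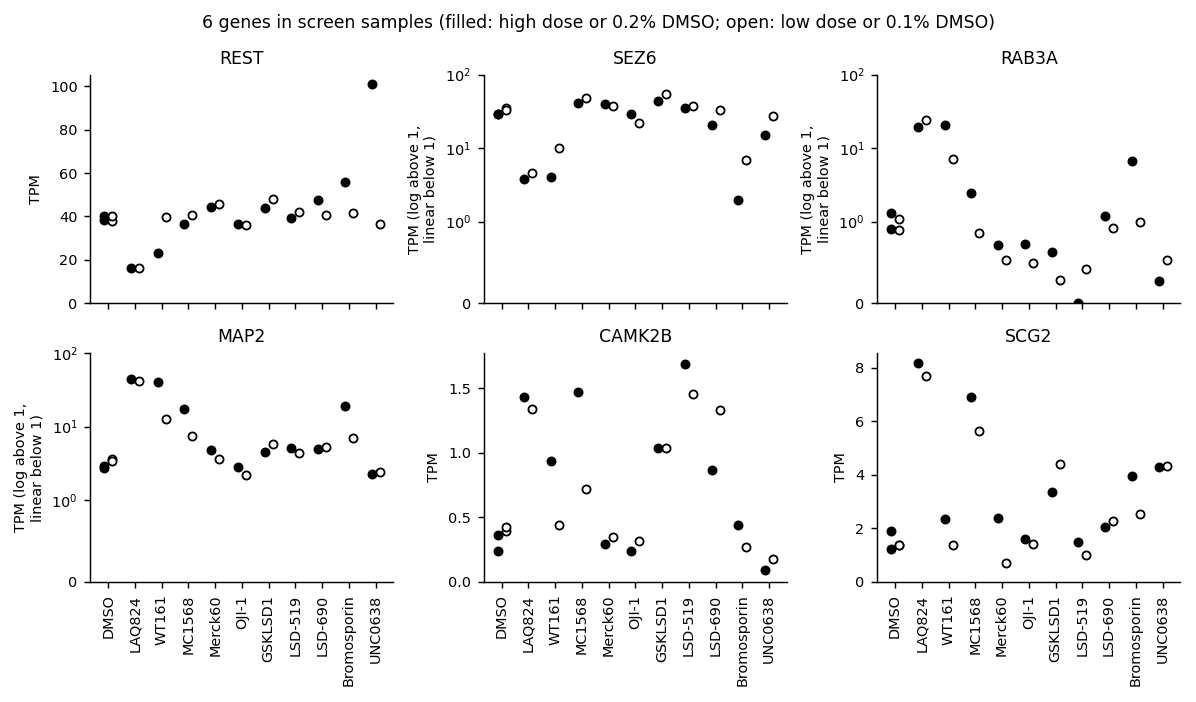
TPM of REST, SEZ6, RAB3A, MAP2, CAMK2B and SCG2 in DMSO, the 5 HDAC and 3 LSD1 inhibitors, bromosporin and UNC0638, 1 point per sample, filled for high doses and 0.2% DMSO and open for low doses and 0.1% DMSO. REST is lowest under LAQ824 at 16.2 TPM and highest at the high dose of UNC0638, SEZ6 is low under LAQ824, WT161 and bromosporin, as it was under trametinib and the high dose of SGC-CBP30, which are not plotted, and all LSD1 inhibitor points of CAMK2B lie above DMSO.

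N1302 was measured in 1 sample against 1 DMSO sample, so its differences have no replicate check and no test. After 6 h, 23 of the 48 genes were at least 2-fold higher on the log2(TPM + 1) scale and 1 was at least 2-fold lower, where 11.6% and 19.3% of all tested genes passed the same limit. The mean change over the 48 genes was 1.18, against -0.15 over all tested genes. The number of members at 1 TPM or more went from 17 to 32. RAB3A went from 0.199 to 28.2 TPM (difference 4.61), SYN1 from 0.124 to 16.8 TPM (3.99), NEFH from 0.214 to 17.4 TPM (3.92) and ELAVL3 from 0.043 to 10.9 TPM (3.52). SYT5 went from 0.164 to 6.78 TPM, INA from 22.6 to 141 TPM, MAPK8IP1 from 11.2 to 71.5 TPM and DNER from 2.31 to 16.4 TPM. CPLX1 and CHGA were listed at 0 in DMSO and at 5.38 and 4.94 TPM under N1302. REST went from 50.5 to 10.7 TPM (difference -2.14), its lowest value in the 52 samples and the 1 member past the 2-fold limit downward. GAD1 went from 5.07 to 3.73 TPM and SEZ6, low in this DMSO sample, from 1.96 to 0.641 TPM.

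Entinostat was followed over time, again with 1 sample and 1 DMSO sample at each time and no test. At 1 h, 0 members were past a 2-fold difference in either direction (0.66% and 0.581% of all tested genes), and the mean change of the 48 genes was 0.02. The largest differences at 1 h among expressed members were 0.24 for SYT1, 0.21 for SEZ6, 0.21 for STMN3 and -0.20 for STX1A, followed by SCG2 (0.20), DNER (0.15), SYT11 (0.12), SYT7 (0.12), REST (-0.10) and ELAVL2 (0.06). At 6 h, 3 members were at least 2-fold higher and 0 lower (5.13% and 0.947% of all tested genes), and the mean change was 0.28. They were MAP2, which went from 5.68 to 24.1 TPM, INA, from 16 to 40.2 TPM, and SYT11, from 13.2 to 32.6 TPM. RAB3A (0.91), SYT1 (0.73), UCHL1 (0.70), SYT7 (0.62), ELAVL2 (0.61) and SH3GL2 (0.59) came next, and MAPK8IP1 had the largest difference downward, from 11.7 to 7.39 TPM.

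By 24 h of entinostat, 27 members were at least 2-fold higher and 1 lower (16.4% and 6.06% of all tested genes), and 33 were at 1 TPM or more. The mean change of the 48 genes was 1.34, against 0.21 over all tested genes. MAP2 went from 6.78 to 170.5 TPM (difference 4.46), ELAVL3 from 0.116 to 15.4 TPM (3.88), SH3GL2 from 0.283 to 12.8 TPM (3.43) and DNER from 2.69 to 36.5 TPM (3.34). RAB3A, NEFH, SYN1, SYT5 and SYT11 reached 16.6, 9.03, 8.27, 5.52 and 86.8 TPM. SEZ6 went from 14 to 1.38 TPM, the 1 gene past 2-fold downward. STMN2, CHGB and UNC13A passed 1 TPM in this sample only, at 3.79, 1.77 and 2.54 TPM. REST went from 42.2 to 30.8 TPM at 6 h (difference -0.44) and from 46 to 42.6 TPM at 24 h (-0.11). How its mRNA relates to the change of the members was not tested.

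**Figure D5:**
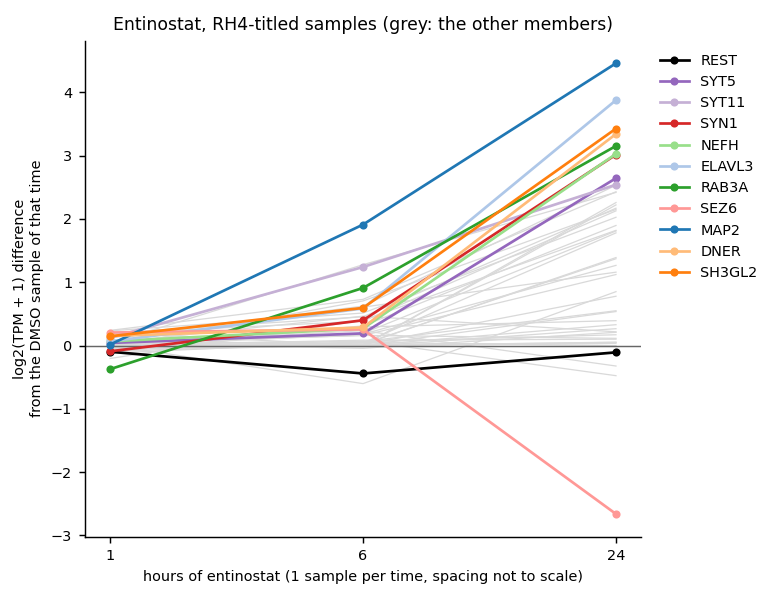
Difference in log2(TPM + 1) from the DMSO sample of the same time for the 48 genes after 1, 6 and 24 h of entinostat, 1 sample per time, with 10 members of large difference at 24 h and REST in colour and black. MAP2 goes from 0.02 to 1.91 and 4.46, SEZ6 ends at -2.66, and REST stays between -0.44 and -0.10.

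The presence of the strict RE1 letters can be set beside these values. Of the 13 genes with a strict match, 8 were called higher under LAQ824, 4 under WT161 and 1 under MC1568. Of the 11 genes with 1 mismatch at best, 6, 5 and 3 were called higher, and of the 24 genes with neither, 11, 4 and 6. Over all tested genes the shares called higher were 14.0%, 5.48% and 7.41%. All of the strict-match genes that were tested, other than INA, were under 1 TPM in every screen DMSO sample and passed the filter only through samples in which they were high, and the untested ones stayed low, so the LAQ824 count was largely fixed by the filter and nothing is read from the difference between the groups. The 8 tested strict-match genes are SYT5, SYN1, SYP, CHGA, NEFH, INA, CELF3 and GRIN1, whose sites are shown above. The other strict-match genes (SYT4, SNAP25, CHGB, NEFM and SLC18A3) stayed under the filter, and the search says only which letters lie in the window.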

How the data were processed

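Poly-A selected RNA was sequenced in 52 samples. The authors aligned reads to hg19 with STAR and deposited TPM (transcript abundance), scaled for gene length and library size. The paper names RSEM as the source of TPM, whereas the processing notes deposited with the samples name edgeR and not RSEM. Which tool gave the deposited values was not tested. TPM keeps no absolute depth, so depth is given only as a ratio between samples. The 48 members and all gene lists were chosen with earlier results of these data known.

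Genes at 1 TPM or more in at least 2 of the 52 samples were kept (16359). The 44 screen samples were fitted together with limma 3.58.1 (R 4.3.3, trended variance) on log2(TPM + 1), with 1 level for each compound (both doses) and 1 for DMSO. A fold change on this scale understates the change of low genes. Calls needed a Benjamini-Hochberg adjusted p below 0.05 over all tested genes and a log2 difference of at least 1 in size. The class comparison used compound means and the adjusted p alone, as did the comparison of the DMSO concentrations. Comparisons share the 4 DMSO samples. Set means and the RH4-titled single samples had no test. The fit was tested on simulated data.

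Called members were named, with REST in every comparison, at most 24 per comparison by adjusted p. In single samples the 10 largest differences among members at 1 TPM or more were named. Genes shown for level or contrast beyond this rule were chosen after their values were seen. Some genes of the lists are not reported here. RE1 letters were searched in hg19, with GENCODE annotation. Alternatives were a pseudocount of 0.1, median-ratio scaling, other filters, fits on own samples, references within the flow cell and leaving out samples. Python 3.11.15, pandas 2.3.3 and numpy 2.4.6 were used.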

Additional observations from a re-analysis of the deposited data

Results flagged for a closer look

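SEZ6 and MAPK8IP1 moved in opposite directions at 6 and 24 h of entinostat, each by more than 0.25 in size at both times on the log2(TPM + 1) scale. For SEZ6 the difference from DMSO was 0.26 at 6 h and -2.66 at 24 h. For MAPK8IP1 it was -0.60 at 6 h and 0.85 at 24 h. Each time had 1 treated and 1 DMSO sample, and the difference between times was not tested.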

How the results depend on the processing

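Of 36 main results, 12 kept their direction and size under every alternative run, among them the counts for LAQ824 against DMSO, for which each sample left out gave 27 members. Leaving out 1 sample at a time gave 6 to 22 called members for WT161, 3 to 11 for MC1568, 0 to 1 for GSKLSD1 (SCG2) and 8 to 29 for the 12 other compounds together. Against the LSD1 inhibitors it gave 5 to 18 for WT161 and 1 to 10 for MC1568. The lowest counts came without the high-dose sample, and without it NEFH reversed for WT161 against the LSD1 inhibitors, at -0.055 (2.34 without the low-dose sample). A fit on its own samples and DMSO called 9 members for WT161. References within the flow cell left 12 calls for the 12 other compounds, against 20. With a pseudocount of 0.1, calls were 2 for GSKLSD1, 2 for LSD-519, 1 for LSD-690, and, against the LSD1 inhibitors, 10 for MC1568, 1 for Merck60 and 1 for OJI-1. That pseudocount gave 2 members lower under N1302 and 11 higher at 6 h of entinostat. With both 6 h DMSO samples as reference 2 members were lower under N1302.

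Mean changes over the 48 genes moved with median-ratio scaling to 1.26 (LAQ824), 0.55 (WT161), 0.48 (MC1568), -0.023 (OJI-1), 0.14 (GSKLSD1), 0.057 (LSD-519), 0.061 (LSD-690), 1.41 (N1302), 0.34 (entinostat, 6 h) and 1.41 (24 h). Over the tested members only they were 1.64 (LAQ824), 0.78 (WT161), 0.65 (MC1568), 0.0799 (Merck60), -0.0565 (OJI-1), 0.22 (GSKLSD1), 0.10 (LSD-519), 0.11 (LSD-690), 1.57 (N1302) and 0.039, 0.39 and 1.69 (entinostat at 1, 6 and 24 h). With a pseudocount of 0.1 they were 2.07 (LAQ824), 0.95 (WT161), 0.84 (MC1568), 0.16 (Merck60), -0.088 (OJI-1), 0.30 (GSKLSD1), 0.035 (LSD-519), 0.092 (LSD-690), 2.17 (N1302) and 0.0435, 0.61 and 2.27 (entinostat). With both 6 h DMSO samples as reference they were 1.13 (N1302) and 0.34 (entinostat, 6 h). The causes of these changes were not tested.

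For single genes, 1233 values over 115 pairs of gene and comparison kept direction and side of the threshold, 90 lost the call and 1 reversed. The replicate block, fitted for the DMSO concentrations, called 0 members. Same-numbered DMSO samples shared a flow cell, and their deviations correlated at 0.072. With 2 samples a compound and 1 in each RH4-titled condition, small differences could not be resolved, and low TPM values rest on few reads.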
